A study of Macaca mulatta with 7 samples.

Results

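MRC1, CD163, LYVE1, STAB1 and F13A1 were followed across single nuclei of rhesus monkey (Macaca mulatta) spinal cord. The 5 genes were taken by their symbols from the 28966 gene symbols counted, as receptors and a transglutaminase subunit commonly used to mark macrophages that lie along blood vessels, and their levels are given as counts of unique molecular identifiers (UMIs) per 1000000 UMIs of a class of nuclei (CPM) and as the share of nuclei with at least 1 UMI. They were chosen with their levels in these libraries in view, so the values below are descriptions with no test. In these nuclei the name perivascular did not hold for the main source of MRC1 and CD163. Most of their UMIs in intact cord came from the bulk of the microglia/macrophage-like nuclei. The sub-clusters concerned also read P2RY12, a microglial receptor gene, and CX3CR1. No sub-cluster of those nuclei had more than 1 of the other perivascular markers CD163L1, SIGLEC1, COLEC12, MS4A7 and DAB2 among its 10 leading genes. Detection of these markers in at least 10% of nuclei gave another picture. A sub-cluster of 60 injured nuclei detected all 5 (SIGLEC1 94.6, COLEC12 442 CPM), with MRC1 and CX3CR1 at 0 and P2RY12 at 158. Another, of 555 mostly injured nuclei, detected 4, with CD163L1 at 61.4, SIGLEC1 at 29.0 and CX3CR1 at 48.1. The other sub-clusters detected 2 or 3. MRC1, CD163, LYVE1, STAB1 and F13A1 are therefore called by their gene names.

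Each group was 1 library, sequenced from nuclei on the 10x Genomics droplet platform. The 3 intact libraries were cervical, thoracic and lumbar cord of 1 uninjured monkey aged 5 years. The other 4 were the spared lumbar cord of monkeys with a complete thoracic spinal cord injury, taken at 7 days post-injury (7 dpi, aged 7 years), 14 dpi (aged 7 years), 30 dpi (aged 6 years) and 6 months post-injury (6 mpi, aged 6 years). With 1 animal at each time, injury, time, age and animal cannot be told apart, no difference has a replicate check, and the intervals given (95%, exact) cover counting error alone. The 4 comparisons with intact lumbar cord share that 1 library as their reference.

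MRC1 encodes the mannose receptor, an endocytic lectin of macrophages. CD163 is the scavenger receptor for haptoglobin-haemoglobin complexes and feeds haem breakdown, LYVE1 is a hyaluronan receptor of lymphatic endothelium and of some tissue macrophages, STAB1 (stabilin-1) is a scavenger receptor of macrophages and sinusoidal endothelium, and F13A1 is the catalytic subunit of coagulation factor XIII, made by macrophages and megakaryocytes. In the central nervous system these proteins are best known from macrophages of the perivascular space and meninges, whereas parenchymal microglia are marked by P2RY12.

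The genes lie on 5 chromosomes of the Mmul_10 assembly, in the RefSeq annotation. MRC1 spans 97.8 kb at chr9:18959139-19056976 on the plus strand in 30 exons and contains the microRNA gene MIR511 on its own strand. CD163 spans 34.8 kb at chr11:7681166-7715949 on the minus strand, LYVE1 16.5 kb at chr14:55106413-55122891 on the plus strand, and F13A1 331 kb at chr4:163608969-163939813 on the plus strand. STAB1 spans 30.2 kb at chr2:108653227-108683394 on the plus strand and overlaps the protein-coding gene NT5DC2 on the other strand. The 250 bases before the outermost annotated start are printed for MRC1 and CD163, the more abundant of the genes that were lower in every injured library, with the core GAGGAA bound by the macrophage factor PU.1, or its reverse complement TTCCTC, in capitals. The windows are chr9:18958889-18959138 (plus strand) and chr11:7715950-7716199 (minus strand).
MRC1: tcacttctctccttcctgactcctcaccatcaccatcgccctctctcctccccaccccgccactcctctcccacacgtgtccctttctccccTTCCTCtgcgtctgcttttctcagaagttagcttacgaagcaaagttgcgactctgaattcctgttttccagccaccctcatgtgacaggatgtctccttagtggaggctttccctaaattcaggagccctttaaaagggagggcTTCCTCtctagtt
CD163: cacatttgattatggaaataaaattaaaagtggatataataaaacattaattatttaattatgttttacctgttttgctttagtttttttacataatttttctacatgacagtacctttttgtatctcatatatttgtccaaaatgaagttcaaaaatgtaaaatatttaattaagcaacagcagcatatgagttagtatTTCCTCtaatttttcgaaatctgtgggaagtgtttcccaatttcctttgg
The core was found 2 times in the MRC1 window and 1 time in that of CD163, and it was present in 21.8% of all 20782 windows of the same length. The AP-1 motif TGANTCA, searched on both strands, was in neither window and in 5.15% of all. GC content was 52.8% before MRC1 and 25.2% before CD163.

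The libraries held 6134 to 12015 barcodes and 45079131 to 150987900 UMIs, and 63733 nuclei remained after filtering and removal of doublets. The microglia/macrophage-like class took 17.8%, 22.9% and 19.2% of nuclei in intact cervical, thoracic and lumbar cord and 37.7%, 50.8%, 44.4% and 40.9% at 7, 14 and 30 dpi and 6 mpi, 20541 nuclei in all. Its median depth was 4009.5, 4012 and 3236 UMIs per nucleus in the intact libraries and 4219, 4113, 5811 and 2384 in the injured ones, so the shares of nuclei below were computed after each nucleus was thinned to 1000 UMIs. Any 2 libraries shared 12 to 36 barcodes. Most clusters of the class came from 1 library or from the 3 intact libraries, which were 1 animal, so a difference between clusters and a difference between libraries are largely the same difference.

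MRC1 was high in all 3 intact libraries and low in all 4 injured ones. It stood at 525, 461 and 734 CPM in intact cervical, thoracic and lumbar class nuclei, and at 101, 107, 84.4 and 47.1 at 7, 14 and 30 dpi and 6 mpi. The lowest intact level was thus above every injured level, and the counts behind them ran from 5382 UMIs in intact lumbar cord to 288 at 6 mpi. Against intact lumbar cord MRC1 was lower by 7.29-fold (6.89 to 7.71), 6.88-fold (6.55 to 7.23), 8.69-fold (8.26 to 9.14) and 15.6-fold (13.8 to 17.6) at these times in turn. The levels at 7 and 14 dpi did not differ beyond counting error (ratio of 14 to 7 dpi 1.06, 0.993 to 1.13), and the level at 6 mpi was 0.468 of that at 7 dpi (0.411 to 0.531). Both 6 mpi values hold only with the GPNMB-led cluster of that library in the class. Without that cluster the 6 mpi level was near that at 7 dpi, with the log2 ratio given below. The share of thinned nuclei with MRC1 was 35.0%, 32.3% and 42.1% in the intact libraries and 9.56%, 9.62%, 7.80% and 4.69% in the injured ones. Without thinning these shares were 70.6%, 64.3% and 69.7% against 27.4%, 27.8%, 28.5% and 8.16%. In oligodendrocyte-like nuclei, which should lack the gene and whose median depth was 3508.5 to 8625.5 UMIs, the thinned share was 0% to 0.0762%, far under every value in the class.

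CD163 was also lower in every injured library, by an amount that differed from time to time. Its levels were 511, 418 and 809 CPM in intact cervical, thoracic and lumbar cord, and 108, 282, 149 and 74.0 at 7, 14 and 30 dpi and 6 mpi. The groups did not overlap, but the intact range was 1.94-fold wide. The fold below intact lumbar cord was 7.49 (7.09 to 7.91), 2.86 (2.76 to 2.97), 5.41 (5.20 to 5.64) and 10.9 (9.94 to 12.1) at these times in turn. The 14 dpi library stood apart from the other injured ones, with 2.61 times the level at 7 dpi (2.48 to 2.76), where MRC1 was level. The 6 mpi level was 0.495 of that at 30 dpi (0.448 to 0.546). This difference and the 10.9-fold were both smaller without the GPNMB-led cluster of the 6 mpi library, with the log2 ratio given below. CD163 was detected in 29.1%, 21.9% and 38.7% of thinned intact nuclei and in 8.78%, 18.4%, 12.5% and 5.21% of injured ones, against 0.05% to 0.20% of oligodendrocyte-like nuclei.

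LYVE1 was sparse everywhere in the class and lowest in the injured libraries. The counts were 23, 71 and 116 UMIs in intact cervical, thoracic and lumbar nuclei, and 6, 8, 12 and 1 at 7, 14 and 30 dpi and 6 mpi. In CPM this was 3.27, 6.40 and 15.8 in the intact libraries and 0.385, 0.379, 0.475 and 0.164 in the injured ones. The groups did not overlap, and the intact levels themselves spread widely, with cervical cord 4.83-fold and thoracic cord 2.47-fold below lumbar cord. At 7, 14 and 30 dpi LYVE1 was 41.0-fold (18.3 to 114), 41.7-fold (20.5 to 98.8) and 33.3-fold (18.3 to 66.3) below intact lumbar cord. Oligodendrocyte-like nuclei read LYVE1 at 0.351 to 0.416 CPM in the intact libraries and at 1.00, 0.0641, 0.146 and 0.909 CPM in the injured ones, above the class at 7 dpi and 6 mpi. These folds therefore compare UMIs as read, and how far LYVE1 expression in the injured class lay below intact cord was not measured. At 6 mpi the ratio rested on 1 UMI and was 0.0103 (0.00026 to 0.0588). A thinned nucleus held LYVE1 in 0.305%, 0.437% and 1.06% of intact cases and in 0.0581% at 7 dpi and 0.0517% at 30 dpi, while 0 of 4680 thinned nuclei held it at 14 dpi, which allows a share with a UMI at that depth of up to 0.0641%, and 0 of 2304 at 6 mpi, which allows up to 0.130%. At full depth 0.145%, 0.128%, 0.181% and 0.0434% of injured nuclei had a LYVE1 UMI, against 0.914%, 1.31% and 2.35% of intact ones. The thinned injured shares lie within the 0% to 0.10% of oligodendrocyte-like nuclei and are read as background at that depth. Single nuclei carried much of the signal, with up to 17 UMIs in 1 intact lumbar nucleus and 12 in 1 thoracic nucleus.

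**Figure D1:**
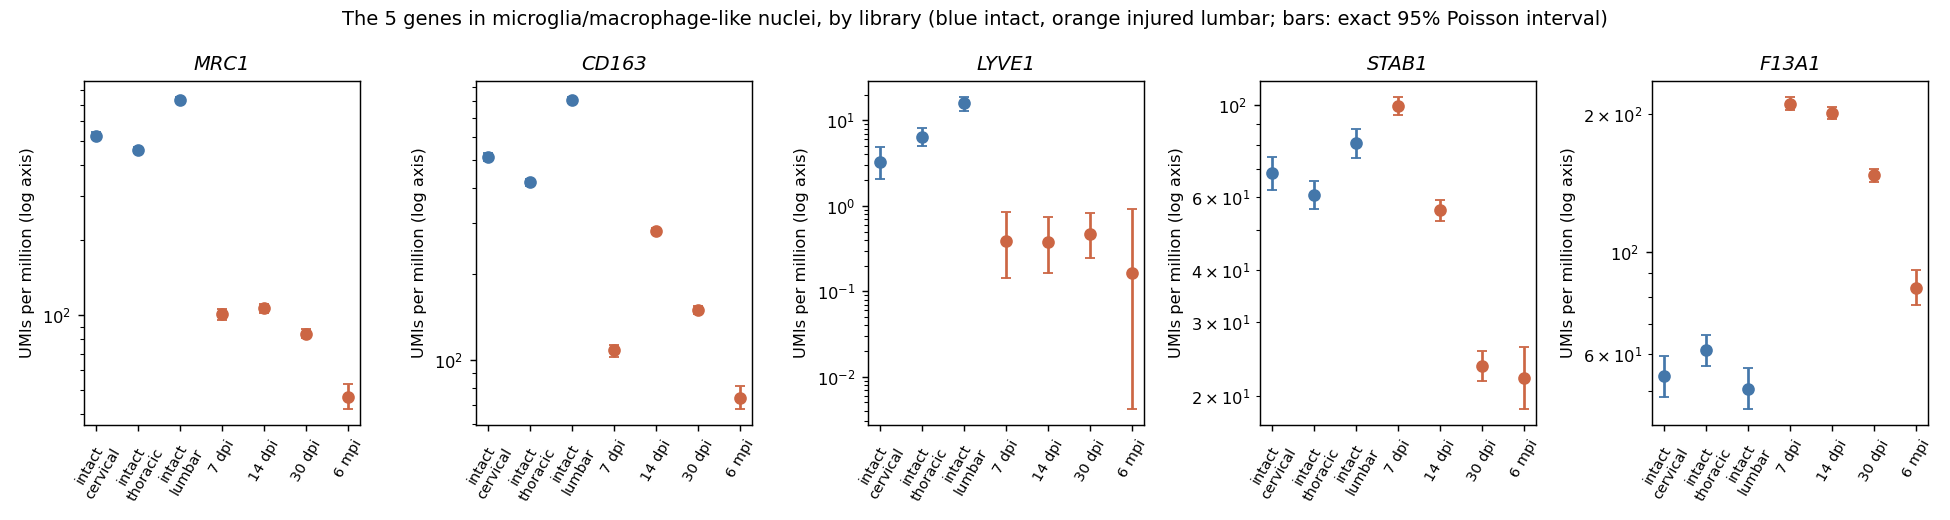
CPM in microglia/macrophage-like nuclei on a log axis for each of the 5 genes, with 1 point per library and 95% exact Poisson intervals of the count. MRC1 lies at 461 to 734 in the 3 intact libraries and at 47.1 to 107 in the 4 injured ones, and CD163 and LYVE1 are likewise separated. STAB1 crosses the intact range between 7 dpi (99.5) and 30 dpi (23.6). F13A1 lies above the intact range at every time, and the share of all genes that did so was not counted.

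STAB1 followed another course. It was 68.6, 60.8 and 80.8 CPM in intact cervical, thoracic and lumbar cord, and 99.5, 55.8, 23.6 and 22.1 CPM at 7, 14 and 30 dpi and 6 mpi. The 7 dpi library was above the intact range, the 14 dpi library just under it and the late libraries well below it. Relative to intact lumbar cord the log2 ratios in time order were 0.30, −0.53, −1.78 and −1.87, the last pair being 3.43-fold (3.05 to 3.85) and 3.66-fold (3.03 to 4.44) lower, the 6 mpi value only with the GPNMB-led cluster of that library in the class. From 7 to 30 dpi the level went to 0.237 of its value (0.215 to 0.261). Thinned nuclei with STAB1 made up 6.64%, 5.84% and 7.58% of the intact libraries and 8.98%, 4.94%, 2.35% and 2.08% of the injured ones, against 0% to 0.13% of oligodendrocyte-like nuclei. Summed endothelial markers in the class were 817 to 862 CPM in the intact libraries and 1533, 834, 841 and 873 in the injured ones, highest at 7 dpi as STAB1 was. Of the 6 markers, 3 reached 10 CPM at 7 dpi, against 4 in each intact library. The marker VWF was among the leading genes of a microglia/macrophage-like cluster at resolution 0.5, with 3341 of its 3465 nuclei from 7 dpi. The part of endothelial markers in the STAB1 level was not tested.

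F13A1 went the other way from MRC1. It was low and even in intact cord, at 53.8, 61.2 and 50.6 CPM in cervical, thoracic and lumbar nuclei, and stood at 211, 201, 147 and 83.8 at 7, 14 and 30 dpi and 6 mpi. Every injured library was above the intact range. Being above that range is a looser rule than the call used below, and the share of all genes that met it at all 4 times was not counted. The ratios to intact lumbar cord in time order were 4.17, 3.97, 2.91 and 1.66, or 2.06 (1.90 to 2.22), 1.99, 1.54 and 0.73 (0.53 to 0.93) on the log2 scale, the 6 mpi value becoming 1.47 without the GPNMB-led cluster. The 6 mpi level was 0.398 of that at 7 dpi (0.362 to 0.437). The thinned share of nuclei was 4.57%, 4.45% and 3.79% in intact cord and 15.9%, 15.3%, 12.2% and 6.12% after injury, against 0.03% to 0.16% in oligodendrocyte-like nuclei. F13A1 is also read in monocytes, and the summed monocyte list of the class was 16.8, 26.6 and 17.7 CPM in intact cord and 100.2, 22.0, 69.0 and 15.4 at the 4 times, of which VCAN, a matrix proteoglycan gene, gave 81.1 at 7 dpi. S100A8 was at 0 at 7 dpi, FCN1, S100A8 and S100A9 at 14 dpi, FCN1 and S100A8 at 30 dpi, and FCN1 at 6 mpi. The part of monocytes in the F13A1 levels was not tested.

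A gene was called where it was past 2-fold against intact lumbar cord, outside the range of the 3 intact libraries and read at 50 UMIs or more in the higher library. At 7 dpi 3 of the 5 genes were called lower and 1 higher, where 4.69% and 9.46% of all genes were. At 14 dpi 3 were called lower and 1 higher, against 3.62% and 6.16% of all genes. At 30 dpi 4 were lower and 1 higher, against 5.39% and 8.73%, and at 6 mpi 4 were lower and 0 higher, against 4.69% and 12.2%. For a call at all 4 times the 50 UMIs could be in any of the 7 libraries, which held for 12451 genes. By that rule MRC1, CD163 and LYVE1 were lower at all 4 times, as 1.13% of those genes were. None of the 5 was higher at all 4, as 2.02% of those genes were. The 6 mpi calls of STAB1 and F13A1, and with them the last count, depend on a GPNMB-led cluster that was kept in the class by a naming threshold set after the clusters had been seen. Without that cluster the 6 mpi log2 ratios were −0.93 for STAB1, no longer called, and 1.47 for F13A1, which was then past 2-fold at all 4 times. Past 2-fold alone, without the condition on the intact range, the 5 genes had the same calls, and the shares of all genes called lower and higher were 4.79% and 9.49% at 7 dpi, 3.65% and 6.21% at 14 dpi, 5.54% and 8.74% at 30 dpi, and 4.74% and 12.4% at 6 mpi. The 5 were chosen on these same levels, so nothing is read from these counts. The median log2 ratio of all genes was 0.08, −0.06, −0.03 and 0.18 at the 4 times. With the 6 mpi library rescaled by its median-of-ratios size factor, its log2 ratios became −4.18 for MRC1, −3.67 for CD163, −6.81 for LYVE1, −2.09 for STAB1 and 0.51 for F13A1.

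Most of the signal outside LYVE1 was in the microglia/macrophage-like class, which held 93.8% of all MRC1 UMIs, 85.6% of STAB1, 84.1% of CD163 and 81.6% of F13A1. It held 31.5% of the 753 LYVE1 UMIs. Levels in oligodendrocyte-like nuclei were 0.256 to 0.740 CPM for MRC1, 0.439 to 1.54 for CD163 and 0.316 to 1.15 for F13A1. Neuron-like nuclei, whose median depth was 21300.5 to 39027 UMIs, read CD163 at 8.03 to 11.6 CPM in every library, 6.22 to 25.1 times the oligodendrocyte level with every interval above 1. That came to 3515 UMIs, 11.4% of all CD163. Ependymal-like nuclei, 617 in all and led by cilia genes such as HYDIN and DNAH11, read CD163 at 31.3 CPM (25.6 to 37.8) on 107 UMIs. By library this was 26.7, 20.1 and 31.6 CPM in intact cervical, thoracic and lumbar cord and 68.1, 58.7 and 22.4 CPM at 7, 14 and 30 dpi, while 0 UMIs were read in 6 nuclei at 6 mpi. The intervals of these libraries were wide, such as 32.7 to 125 CPM on 10 UMIs at 7 dpi. Neuronal F13A1 was uneven, at 13.4, 1.61 and 6.49 CPM in the intact libraries and 7.37, 6.56, 5.14 and 4.12 in the injured ones. In 1 neuron-like cluster of 4345 nuclei it came from few of them, with 92.3% of its 2052 UMIs in the top 5% of nuclei and up to 142 UMIs in 1 nucleus.

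LYVE1 was also read in astrocyte-like nuclei. There it was 4.73, 4.07 and 8.67 CPM in intact cervical, thoracic and lumbar cord and 13.8, 11.5, 9.16 and 12.3 at the 4 times after injury, on 39, 52 and 68 UMIs and 11, 19, 13 and 7 UMIs. Astrocyte-like nuclei thus read LYVE1 at 1.45 (0.843 to 2.54), 0.636 (0.436 to 0.922) and 0.548 (0.400 to 0.746) times the microglial level in intact cord, and at 35.9 (12.2 to 118), 30.2 (12.6 to 79.9), 19.3 (8.11 to 46.2) and 75.0 (9.64 to 3382) times it after injury, where the microglial levels divided by rest on 1 to 12 UMIs and were under those of oligodendrocyte-like nuclei at 7 dpi and 6 mpi, so the ratios compare UMIs as read. The astrocyte-like class was a mixture whose make-up differed by library. Its cluster of 1444 nuclei led by ITPRID1 and SLC1A2, a glutamate transporter gene, read LYVE1 at 11.5 CPM, and its cluster of 2444 nuclei led by SLC14A1, a urea transporter gene, at 2.73 CPM. The first held 361, 276 and 484 nuclei of intact cervical, thoracic and lumbar cord and 41, 155, 47 and 80 of the injured libraries in time order, and the second 523, 1158 and 493 against 54, 90, 95 and 31. The part of this mix in the astrocyte levels was not tested. A neuron-like cluster of 86 very deep nuclei (median 115034 UMIs) held 113 LYVE1 UMIs at 10.4 CPM, and 29.1% of its nuclei had a UMI without thinning.

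**Figure D2:**
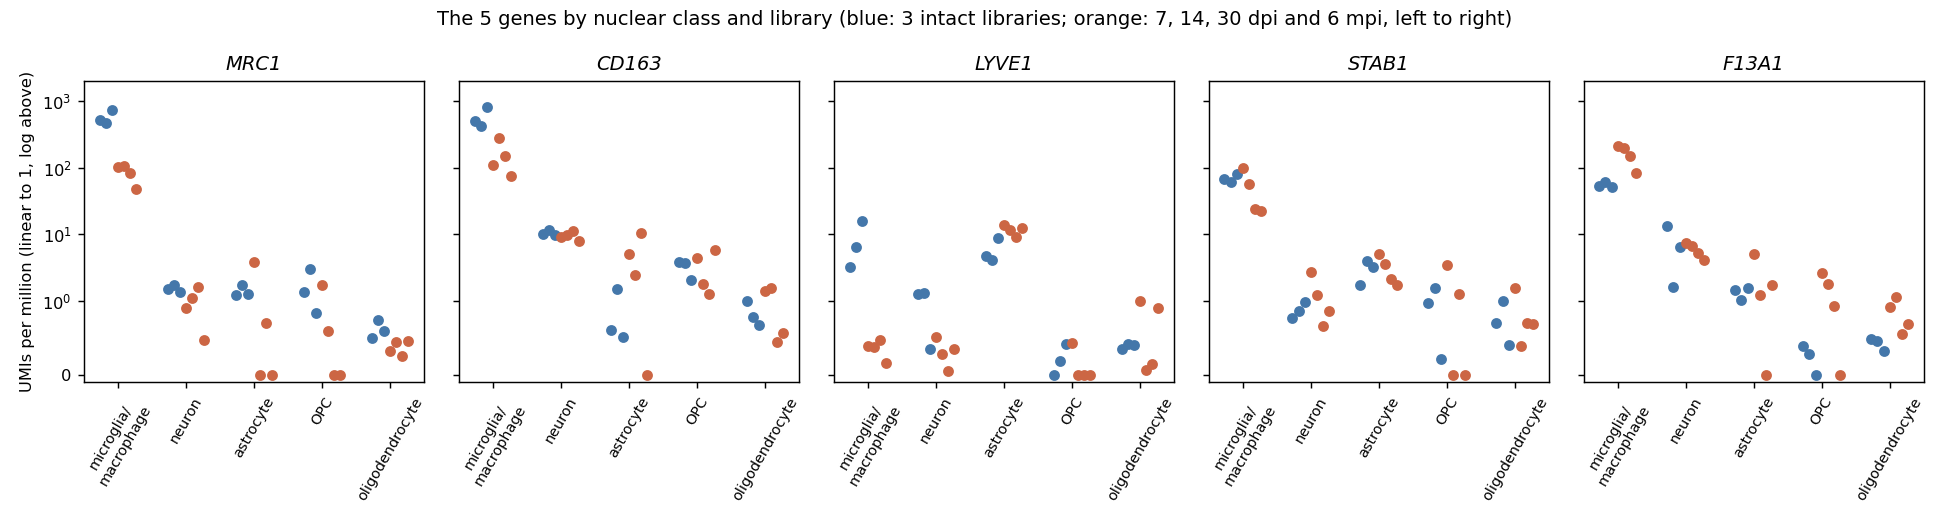
CPM of each gene in 5 classes of nuclei, with 1 point per library (blue intact, orange injured, in time order), on an axis that is linear up to 1 and logarithmic above, with ependymal-like and T cell-like nuclei not drawn. MRC1, CD163, STAB1 and F13A1 are highest in the microglia/macrophage-like class, while LYVE1 in astrocyte-like nuclei (4.07 to 13.8) is above its level in the injured class (0.164 to 0.475).

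Within the class, clustering with these genes and the perivascular list left out gave 13 sub-clusters. The largest held 4767 nuclei, with 1156, 1966 and 1628 from intact cervical, thoracic and lumbar cord, and carried 74.1%, 78.7% and 82.4% of the MRC1 UMIs of the intact cervical, thoracic and lumbar class. Its MRC1 levels were 575, 472 and 778 CPM in those libraries, with 1137 for P2RY12 over the sub-cluster. MRC1 was therefore spread over the bulk of intact microglia/macrophage-like nuclei and not held in a small population.

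CD163 and LYVE1 were unevenly placed among intact nuclei. A second sub-cluster, of 1131 nuclei with 337, 391 and 399 from the intact libraries, was led by CLDN1, CXCL8, IL1B and the immediate-early receptor genes NR4A1, NR4A2 and NR4A3. There CD163 stood at 729, 1116 and 1419 CPM, against 459, 268 and 655 in the largest sub-cluster of the same libraries, and it gave 33.3%, 45.5% and 34.3% of class CD163. LYVE1 was 7.93 (4.22 to 13.6), 18.5 (12.9 to 25.8) and 59.3 (47.3 to 73.3) there against 1.89, 2.70 and 5.44, on 13, 35 and 85 UMIs, which were 56.5%, 49.3% and 73.3% of class LYVE1. MRC1 ran the opposite way, at 402, 432 and 604 against 575, 472 and 778. The other perivascular markers did not share 1 direction there. Against the largest sub-cluster, MS4A7 was 1041 against 885 CPM, DAB2 204 against 247, CD163L1 39.2 against 51.3, SIGLEC1 (the sialic acid receptor sialoadhesin) 1.81 against 1.31 and COLEC12 (a scavenger collectin) 0.40 against 1.37, with P2RY12 at 1107 against 1137. Without it the LYVE1 log2 ratios were −3.77, −3.79 and −3.47 at 7, 14 and 30 dpi in place of −5.36, −5.38 and −5.06. At a coarser resolution, 448 nuclei (447 intact, 259 of them lumbar) led by the same NR4A genes read CD163 at 1952, MRC1 at 601 and LYVE1 at 62.7 CPM, with 116 of the 237 LYVE1 UMIs of the class.

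Among injured nuclei the genes also separated. A sub-cluster of 555 nuclei led by GRID1, IQGAP2 and LGALS3, with 139 nuclei from 7 dpi and 389 from 14 dpi, read CD163 at 468 (417 to 523), STAB1 at 177 (146 to 212), F13A1 at 226 and MRC1 at 94.4 CPM at 7 dpi. At 14 dpi the same sub-cluster read CD163 at 201, STAB1 at 39.5 and MRC1 at 19.97. Over all its nuclei LYVE1 was 5.79 CPM on 17 UMIs. These nuclei included 1, 7 and 2 of intact cervical, thoracic and lumbar cord, and the whole class held 6 and 8 LYVE1 UMIs at 7 and 14 dpi. How the 17 UMIs split between intact and injured nuclei is not given here. F13A1 was highest in the dividing nuclei, a sub-cluster of 439 led by TOP2A and MKI67 with 379 nuclei from 7 dpi, where it stood at 293 (273 to 315) at that time. A sub-cluster of 533 nuclei led by GLDN, CD109, TGM2 and FN1 included 12, 23 and 18 nuclei of intact cervical, thoracic and lumbar cord. Over all its nuclei F13A1 was 46.2, and LYVE1 was at 0.

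In the late libraries, nuclei with high GPNMB, a glycoprotein gene of lipid-laden phagocytes, read less of the 4 measurable genes than low-GPNMB nuclei of the same library. At 30 dpi the low-GPNMB sub-cluster had 2370 nuclei (GPNMB 36.3 CPM) and the high-GPNMB one 1034 (1263 CPM). MRC1 was 130 against 24.7 (ratio 5.24, 4.53 to 6.10), CD163 199 against 90.6 (2.20, 2.03 to 2.39), STAB1 34.5 against 11.1 (3.10, 2.47 to 3.93) and F13A1 195 against 85.5 (2.28, 2.10 to 2.48). At 6 mpi the low-GPNMB sub-cluster had 1005 nuclei (85.6 CPM) and the high-GPNMB one 1157 (2790 CPM). There the ratios were 161 for MRC1 (44.1 to 1336, on 249 against 2 UMIs), 2.78 for CD163 (2.24 to 3.47), 21.6 for STAB1 (10.2 to 54.9) and 4.20 for F13A1 (3.38 to 5.26). The microglial genes P2RY12 and CX3CR1 were lower in the high-GPNMB nuclei too. Over all nuclei of each sub-cluster, P2RY12 was 1160 against 492 CPM in the 30 dpi pair and 986 against 283 in the 6 mpi pair. CX3CR1 was 270 against 38.0 and 294 against 12.4. The share of all genes that were lower in high-GPNMB nuclei was not counted. With the GPNMB-led cluster out of the class, the 6 mpi log2 ratios to intact lumbar cord were −2.90 for MRC1, −2.81 for CD163, −0.93 for STAB1 and 1.47 for F13A1, in place of −3.96, −3.45, −1.87 and 0.73.

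**Figure D3:**
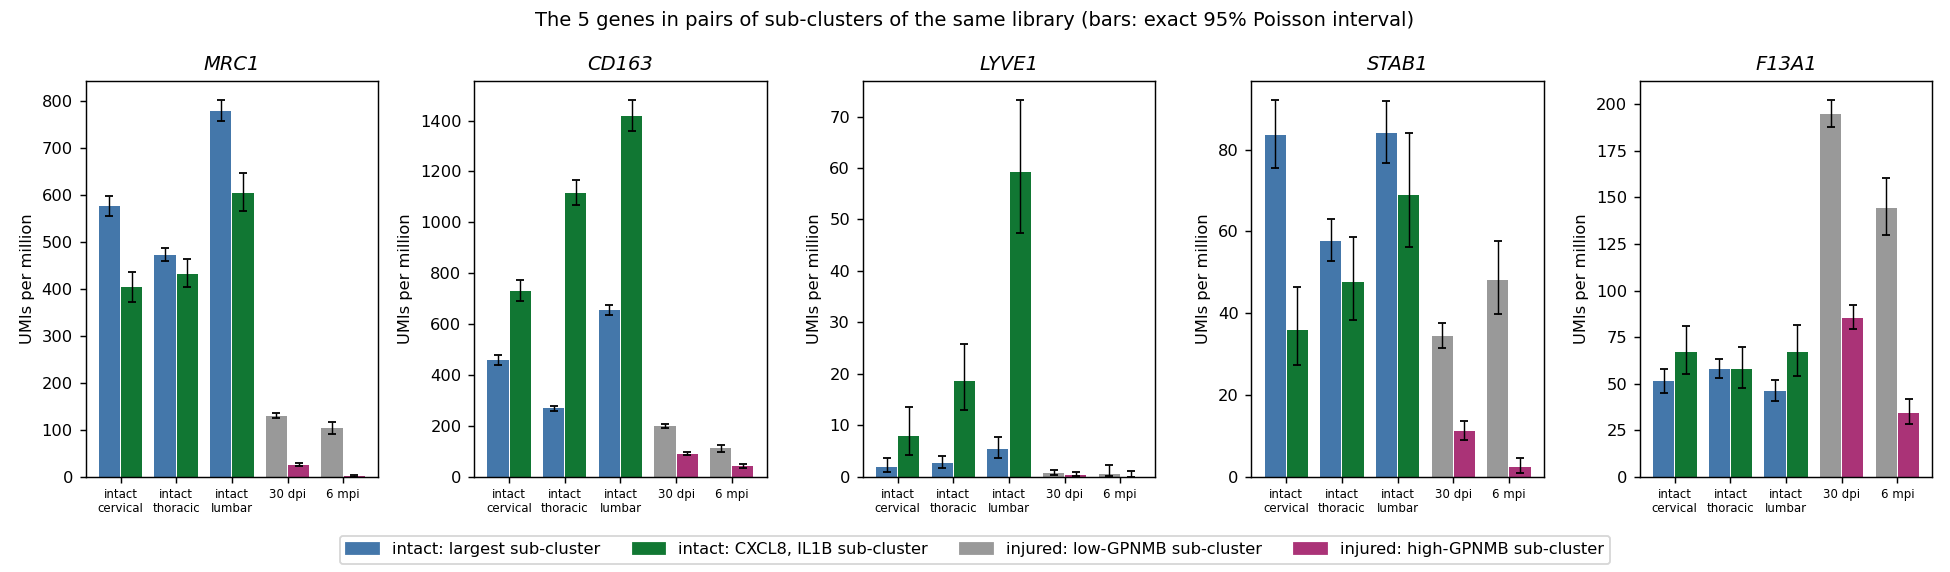
CPM of each gene (linear axes from 0) in pairs of sub-clusters of the same library, with 95% exact Poisson intervals: the largest sub-cluster and the one led by CLDN1, CXCL8 and NR4A genes in the 3 intact libraries, and the low- and high-GPNMB ones at 30 dpi and 6 mpi. CD163 and LYVE1 are higher in the CXCL8-led bars (LYVE1 59.3 against 5.44 in lumbar cord) and MRC1 is lower in them, and the high-GPNMB bars lie under the low-GPNMB bars for MRC1, CD163, STAB1 and F13A1.

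CD163 was read more often in intact nuclei with MRC1 than in intact nuclei without it. Among thinned nuclei with MRC1, CD163 was found in 33.6% (29.8 to 37.7) in cervical, 26.4% (23.4 to 29.6) in thoracic and 44.6% (41.3 to 47.9) in lumbar cord. Among nuclei without MRC1 it was found in 26.7% (24.1 to 29.4), 19.7% (17.8 to 21.7) and 34.4% (31.7 to 37.1). The share with MRC1 was the higher one in all 3. Pooled over the nuclei of the 4 injured libraries the values were 13.6% (11.7 to 15.7) and 12.3%, and at 14 dpi both were 18.4%. The share with CD163 ran from 5.21% to 18.4% between those libraries, and the part of that mix in the pooled values was not tested. Thinned intact nuclei with LYVE1 were few, at 5, 11 and 22 in cervical, thoracic and lumbar cord. They held CD163 in 1, 4 and 17 cases, against 29.1%, 21.8% and 38.2% of nuclei without LYVE1, and the lumbar share was 77.3% (54.6 to 92.2). They held MRC1 in 1, 6 and 11 cases, against 35.0%, 32.2% and 42.0%. Both intervals in cervical and thoracic cord were wide enough to hold the value without LYVE1, as was that of MRC1 in lumbar cord (28.2 to 71.8). Of the 6245 intact nuclei, thinned to 1000 UMIs, 2661 held none of the 5 genes, 2487 held 1, 973 held 2, 113 held 3, 10 held 4 and 1 held all 5. At full depth 896 held none, 2178 held 1, 2167 held 2, 888 held 3, 112 held 4 and 4 held all 5.

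Other genes of perivascular and meningeal macrophages did not move as a block. Of 18 such genes 17 were found and 11, 10, 10 and 8 had enough UMIs for the comparisons at 7, 14 and 30 dpi and 6 mpi. Of these, 3, 2, 4 and 2 were called higher, where 9.46%, 6.16%, 8.73% and 12.2% of all genes were, and 3, 3, 4 and 4 lower, where 4.69%, 3.62%, 5.39% and 4.69% of all genes were. Their median log2 ratio was −0.49, −0.30, −0.71 and −1.09, against 0.08, −0.06, −0.03 and 0.18 over all genes. The same shares and medians of all genes stand behind the lists that follow. CD163L1, a scavenger receptor related to CD163, was lower at all 4 times, at 53.8, 36.6 and 67.1 CPM in intact cord and 26.8, 22.0, 15.8 and 8.84 after injury. SIGLEC1 was higher at all 4, at 1.56, 2.43 and 0.681 against 19.9, 15.6, 15.6 and 17.3. MS4A6A, a membrane-spanning gene of macrophages, was also higher at all 4, at 3.84, 4.95 and 1.77 against 6.87, 20.2, 13.5 and 6.71. Its 6 mpi level rested on 41 UMIs, too few for a call at that time alone. MS4A7, of the same family and the most abundant gene of the list, was 859, 816 and 1077 against 767, 928, 641 and 564, and DAB2, an endocytic adaptor, was 211, 221 and 292 against 165, 87.3, 87.0 and 122. The sum of CD163L1, SIGLEC1, COLEC12, MS4A7 and DAB2 was 1126, 1083 and 1437 in intact cord and 995, 1059, 859 and 781 after injury. MS4A7 made up most of this sum in every library. COLEC12 was 0.569, 6.76 and 0.818 in intact cord and 16.8, 6.21, 99.9 and 69.9 after injury, inside the intact range at 14 dpi.

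Of 8 relatives of the 5 genes, 7 were found and 5, 4, 6 and 5 had enough UMIs at the 4 times, with 0, 1, 2 and 2 called higher and 1 called lower at each time (median log2 ratio 0.43, 0.14, 0.22 and 0.48). The gene called lower was CD163L1 throughout. MRC2, the collagen-binding relative of MRC1, was 154, 169 and 160 CPM in intact cord and 209, 199, 123 and 106 after injury. PLA2R1, another member of the mannose receptor family, was 371, 409 and 421 against 569, 411, 413 and 587. CD44, the other main hyaluronan receptor, was 28.6, 42.5 and 26.0 against 48.7, 135, 160 and 246, in the opposite direction to LYVE1. TGM2, the tissue transglutaminase related to F13A1, was 1.14, 2.52 and 2.32 against 4.05, 2.09, 53.6 and 33.4.

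Of 21 ligands and partners, 13, 14, 14 and 13 had enough UMIs at the 4 times, with 3, 2, 5 and 4 called higher and 2, 0, 1 and 1 lower (median log2 ratio 0.16, 0.01, 0.38 and 0.29). Of the haem and iron genes downstream of CD163, HMOX1, HMOX2, BLVRA, BLVRB, FTH1 and FTL were above the intact range at all 4 times. SLC40A1 was not. Being above the range is a looser rule than a call, and the share of all genes that met it was not counted. HMOX1, haem oxygenase, was 8.25, 7.66 and 9.27 CPM in intact cord and 27.2, 11.9, 10.4 and 11.5 after injury. BLVRA, biliverdin reductase, was the 1 gene of the list called higher at all 4 times, at 2.84, 2.88 and 0.954 against 4.37, 9.58, 26.2 and 33.9. HMOX2 was 66.7, 72.5 and 83.0 against 92.6, 155, 189 and 102, and BLVRB 17.1, 10.7 and 14.2 against 34.2, 22.9, 25.4 and 37.0. The ferritin chains FTH1 and FTL were 118 to 143 and 71.7 to 93.1 in intact cord, and 185, 344, 339 and 510 and 143, 141, 218 and 436 after injury. SLC40A1, the iron exporter ferroportin, was 23.3, 25.6 and 27.7 against 11.2, 14.4, 15.95 and 27.0, below the intact range at 7, 14 and 30 dpi as CD163 was. The glucocorticoid receptor gene NR3C1, whose ligand induces CD163, was 638, 661 and 643 against 524, 655, 690 and 793, and ADAM17, the protease that sheds CD163, was 152 to 157 against 181, 152, 193 and 139. F13B, the carrier subunit of factor XIII, and the fibrinogen genes FGA, FGB and FGG were listed at 0 in every library.

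The remaining lists describe the nuclei that carried the 5 genes. The homeostatic microglial list (9 of 10 genes with enough UMIs) had 0, 0, 0 and 1 genes called higher and 1, 2, 3 and 4 lower, and none was called in 1 direction at all 4 times. P2RY12 was 1073, 1031 and 1275 CPM in intact cord and 650, 918, 848 and 607 after injury, and CX3CR1 561, 428 and 431 against 277, 315, 169 and 141, smaller differences than that of MRC1. The phagocyte activation list of 10 had 5, 6, 8 and 5 genes higher and 0, 0, 0 and 1 lower, with GPNMB, CTSD, APOE, ITGAX and MSR1 higher at all 4 times. The proliferation list had 11, 8 and 10 of 11 genes higher at 7, 14 and 30 dpi and 1 of 3 tested at 6 mpi. The monocyte list (5 of 11 with enough UMIs) had 1, 0, 2 and 0 higher and 1, 1, 1 and 3 lower. The early response list had 4 of 8 genes lower at 7 dpi, 6 and 7 of 8 higher at 14 and 30 dpi, and 6 of 7 higher at 6 mpi.

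**Figure D4:**
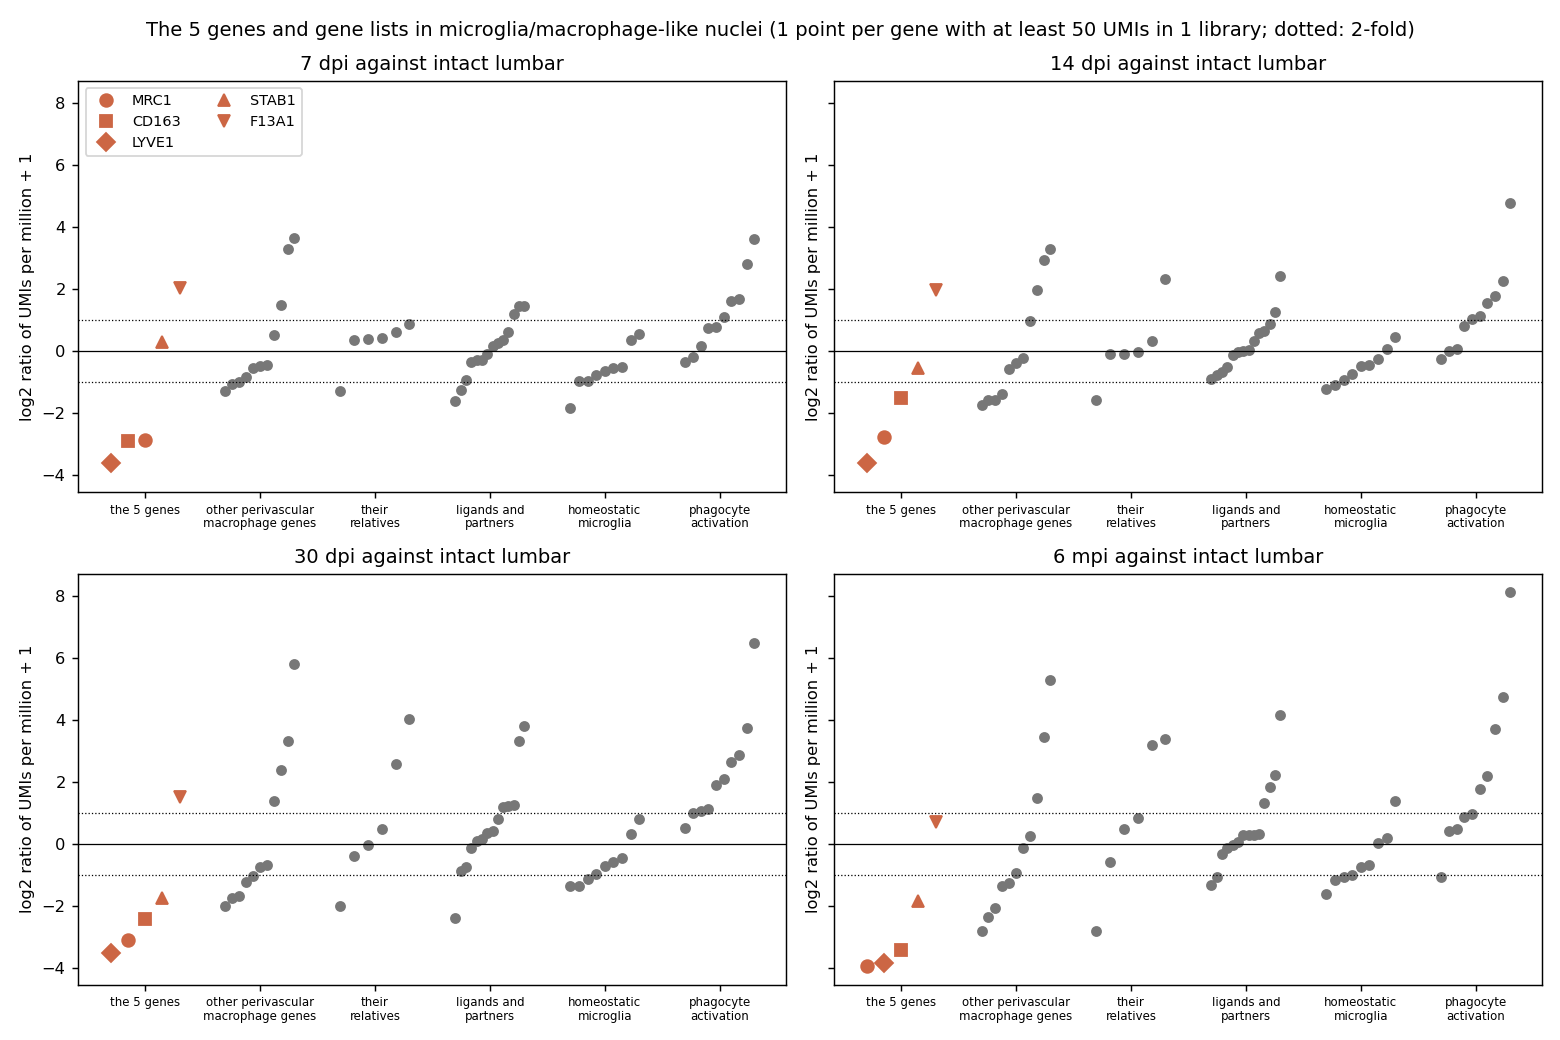
Log2 ratio to intact lumbar cord of CPM plus 1 (vertical axis) at the 4 times after injury, with 1 point per gene for the 5 genes and 5 related lists and dotted lines at 2-fold. The added 1 shrinks the ratios of sparse genes such as LYVE1, but MRC1, CD163 and LYVE1 lie below the lower line at every time (MRC1 at −2.85, −2.77, −3.10 and −3.93), F13A1 lies above 0, and the related lists other than phagocyte activation hold genes on both sides of 0 at every time.

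Genes whose log2 level over the 7 libraries was most like that of each of the 5 genes were found among 8107 genes of the class, as a description. The 3 intact libraries were 1 animal, and depth differed between libraries. Nearest to MRC1 were IL18 (Pearson r = 0.998) and CTTNBP2 (r = 0.997). IL18, a cytokine gene, was 386, 351 and 418 CPM in intact cord and 195, 207, 178 and 153 after injury. CTTNBP2, a cortactin-binding protein gene, was 1389, 1137 and 1608 against 428, 421, 323 and 239. Nearest to CD163 were P2RY12 (0.981), IRF2 (0.976) and KIAA1549 (0.976), to LYVE1 DNAJB11 and STON2 (both 0.969), to STAB1 CTNND1 (0.992) and HEG1 (0.988), and to F13A1 CYFIP1 (0.989) and IMPA2 (0.988). CYFIP1, an actin regulator gene, was 398, 425 and 374 in intact cord and 853, 798, 635 and 446 after injury. Between the 5 genes themselves r was 0.941 for MRC1 and CD163, 0.938 for MRC1 and LYVE1, 0.878 for CD163 and LYVE1, 0.627 for MRC1 and STAB1, and −0.731 for MRC1 and F13A1. The values for LYVE1, and its nearest genes, rest on 6, 8, 12 and 1 LYVE1 UMIs in the injured libraries in time order.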

How the data were processed

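Nuclei of spinal cord were profiled with 10x Genomics 3′ chemistry, and per the study's methods and the submitters' processing notes the reads were aligned to Mmul_10 and counted with Cell Ranger 6.0.0. The deposited files hold whole-number counts (UMIs per gene and barcode) for each library, not normalised by the authors, with barcodes selected before deposit. Of 35432 gene identifiers, 959 were named from the RefSeq gene table, and rows of 1 symbol were summed to 28966.

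Of 69332 barcodes (777183139 UMIs), 67084 passed the study's stated limits (more than 500 genes and 1000 UMIs, with less than 10% of UMIs from mitochondrial and 5% from haemoglobin genes). The top 5% of Scrublet scores in each library were removed as doublets, 3351 in all, in place of the study's caller, leaving 63733 nuclei. Nuclei were scaled to 10000 UMIs, log-transformed, and clustered on 2000 variable genes, 30 principal components and 20 neighbours by the Leiden method (resolution 1, seed 1), with the 5 genes and the perivascular list left out of the variable genes. Clusters were named from marker lists, and 2261 nuclei stayed unnamed (1.49% to 5.92% of a library). The minimum score of 0.2 that makes a second class count was set after the clusters had been seen, because the GPNMB-led 6 mpi cluster had first stayed unnamed, and that earlier naming is among the alternatives. Class names were rebuilt here and may differ from those of the study.

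UMIs were summed per library and class and given per 1000000 UMIs of that class (CPM). Intervals were exact Poisson for levels, Clopper-Pearson for shares and conditional binomial for ratios, at 95%, and a count of 0 was given the floor of 3 counts. Intervals and floors cover counting error only. There was 1 library per group, so no test was run and no p-value is given. Fold calls over all genes used CPM plus 1. Shares used nuclei thinned to 1000 UMIs. The counting of calls and ratios was tested on simulated data.

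Named were the 5 genes, list genes with at least 50 UMIs in the class in 1 library, leading genes of sub-clusters, and the 5 genes with a mean of at least 10 CPM whose log2 level correlated best with each of the 5. Genes given at 0 or below that count fall outside the rule and were added to complete their lists. The genes and lists were chosen with earlier results of these data known. Promoter windows came from the Mmul_10 genome and its RefSeq annotation. Clustering used scanpy 1.11.5, anndata 0.12.19, leidenalg 0.10.2, igraph 0.11.9 and scikit-learn 1.9.0, intervals scipy 1.17.1, tables pandas 2.3.3 and numpy 2.4.6, and plots matplotlib 3.10.9, all under Python 3.11.15.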

Additional observations from a re-analysis of the deposited data

Results flagged for a closer look

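STAB1 stood on opposite sides of intact lumbar cord at different times, with a log2 ratio of 0.30 at 7 dpi and −1.78 at 30 dpi. Each time was 1 library of 1 animal, so the difference between the times was not tested.

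CD163 and F13A1 were also read in nuclei outside every named class. A cluster of 196 nuclei led by FN1, CFD, ITGA4, PECAM1 and FGR, with 14, 35 and 20 nuclei in intact cervical, thoracic and lumbar cord and 74, 34, 17 and 2 at 7, 14 and 30 dpi and 6 mpi, was left unnamed because an endothelial marker was among its leading genes. It read CD163 at 333 CPM (290 to 382) and F13A1 at 154 (125 to 188), with STAB1 at 20.8, MRC1 at 6.41 on 4 UMIs and LYVE1 at 0. The median depth of its nuclei was 2777 UMIs. At resolution 0.5 the matching cluster of 194 nuclei scored highest for the microglia/macrophage class (0.394), with endothelial second (0.198). The study marked its monocytes by FN1 and PECAM1, and whether these nuclei were monocytes was not tested. Oligodendrocyte-like nuclei, as background, read CD163 at 0.439 to 1.54 and F13A1 at 0.316 to 1.15.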

How the results depend on the processing

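Each gene was summarised by the log2 ratio of its mean CPM over the 4 injured libraries to that of intact lumbar cord, which was −3.11 for MRC1, −2.40 for CD163, −5.49 for LYVE1, −0.69 for STAB1 and 1.67 for F13A1, and no value changed sign under any alternative run. Over the alternatives these ranged from −3.17 to −2.76 for MRC1, −2.41 to −1.92 for CD163, −6.58 to −3.90 for LYVE1, −0.74 to −0.44 for STAB1 and 1.54 to 1.92 for F13A1. Values that moved by more than the counting error follow, and where the construction of an alternative does not itself show the cause, the cause was not tested. With the mean of the 3 intact libraries as reference, MRC1 was −2.76, CD163 −1.92, LYVE1 −4.60 and STAB1 −0.48. As a mean over nuclei MRC1 was −3.02, with each nucleus named alone at 1000 UMIs −2.87, and with the oligodendrocyte level subtracted, which left 0 at 7 dpi and 6 mpi, LYVE1 was −6.58. Chosen after seeing the data, leaving the GPNMB-led cluster unnamed gave MRC1 −2.90, CD163 −2.30 and STAB1 −0.54, leaving out the CXCL8 and IL1B sub-cluster gave MRC1 −3.17, CD163 −2.11 and LYVE1 −3.90, leaving out the 6 mpi library gave MRC1 −2.92, CD163 −2.17, STAB1 −0.44 and F13A1 1.88, and counting after thinning gave MRC1 −2.98 and F13A1 1.92. The share of nuclei differed from intact lumbar cord by −34.1, −27.4, −1.03, −2.99 and 8.57 percentage points for MRC1, CD163, LYVE1, STAB1 and F13A1. Unthinned these were −46.7, −31.4, −2.23, −5.47 and 21.6, at 2000 UMIs −46.4, −35.4, −1.79, −4.62 and 13.2, and at 2 or more UMIs unthinned −38.6 for MRC1, −30.4 for CD163, −0.84 for STAB1 and 13.6 for F13A1. Genes past 2-fold numbered 1603, 1147, 1689 and 1715 at the 4 times with 50 UMIs or more, and 974, 716, 1084 and 959 with 200 or more. At 6 mpi F13A1 was 1.07 with each nucleus named alone, past 2-fold. No paired analysis was possible because each group was 1 library and no test was run. Depth limits LYVE1 most, since its injured levels rest on 1 to 12 UMIs, and the 6 mpi library was the shallowest.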
